A study of Homo sapiens with 6 samples.

Results

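The cytosolic ribosomal protein genes were examined in K562 cells after knockdown of METTL3 or METTL14. Members were the protein-coding genes of the count table whose symbol starts with RPL or RPS followed by a digit, together with RPSA, RPLP0, RPLP1 and RPLP2, leaving out pseudogenes and the RPS6K kinases. The rule found 91 genes among 61661 table features. By class these were 31 genes for proteins of the small (40S) subunit, 46 for proteins of the large (60S) subunit, 10 paralog genes such as RPL22L1, 3 readthrough genes that join a ribosomal protein gene to its neighbour, and RPS19BP1, which encodes a protein that binds RPS19 and is no ribosomal protein itself. A total of 85 members passed the filter on low counts. The 6 that did not were RPL10L, RPS4Y1, RPS4Y2 and the readthrough genes RPL17-C18orf32, RPL36A-HNRNPH2 and RPS10-NUDT3.

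A ribosome is built from ribosomal RNA and a fixed set of proteins, which the cell needs in matched amounts. The small subunit reads the mRNA, and the large subunit joins amino acids and carries a stalk of acidic P proteins that calls in the translation factors. Most ribosomal protein mRNAs start with a cytosine followed by a stretch of pyrimidines, the 5′ terminal oligopyrimidine (TOP) motif, through which the mTORC1 kinase and the RNA-binding protein LARP1 adjust their translation and stability together. In erythroid cells, loss of 1 copy of one of several of these genes causes Diamond-Blackfan anemia.

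K562 is an established human cell line from a pleural effusion of chronic myeloid leukemia in blast phase, and METTL3 and METTL14 form the enzyme core that places N6-methyladenosine on mRNA. The 6 libraries, 2 in each of 3 groups, came from cells with a control shRNA (shCTR, genotype WT in the labels), an shRNA against METTL3 (shMETTL3, METTL3 knockdown) or an shRNA against METTL14 (shMETTL14, METTL14 knockdown). The study made its stable METTL3 knockdown and control lines with a U6-driven lentiviral vector that also carries GFP and puromycin resistance, and the control vector held a nonsense sequence. Neither the age of the cultures nor the vector of the METTL14 line was given, and the labels do not say whether the 2 libraries of a group came from separate cultures, so that the p-values measure only the spread between these libraries. Total counts ranged from 19292574 to 20115304 per library. METTL3 had 90.5 and 90.3 CPM (read counts over the TMM-scaled library size, times 1000000) in shCTR and 52.5 and 46.7 in shMETTL3, and METTL14 had 33.2 and 34.2 in shCTR and 19.1 and 20.6 in shMETTL14. METTL3 thus stood at 54.9% and METTL14 at 58.9% of shCTR, with no overlap between groups. All 12 erythroid K562 markers had at least 10 reads in every library. Of the markers of other cell types, the summed level of 3 monocyte genes was 42.2 to 43.9 CPM in shCTR, 15.6 to 16.5 in shMETTL3 and 59.9 to 65.2 in shMETTL14, with 2 of the 3 genes at or under 3 reads in every library, and the part of this difference in the results below was not tested. The 2 fibroblast markers summed to 2.30 to 2.99 CPM in shCTR, 5.78 to 6.11 in shMETTL3 and 3.47 to 3.82 in shMETTL14. The 2 T cell markers summed to 3.24 to 3.76, 5.09 to 5.98 and 4.34 to 4.73 CPM, and the 2 B cell markers to 2.35 to 2.48, 3.29 to 3.51 and 1.58 to 2.75. These sums were low but higher in shMETTL3 than in shCTR without overlap, and their part in the results was likewise not tested.

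The annotated transcription starts of the members carry a sequence feature that the symbol rule did not use. A RefSeq start (GRCh38.p14) was found for 72 of the 91 members. A C at the start itself followed by at least 4 bases that are C or T, read on the transcribed strand only, was present in 45 of the 72 (62.5%) and in 4.45% of the 18940 genes of the table with a RefSeq start. When the run could begin anywhere within 5 bases of the start, 54 members (75.0%) and 21.8% of all genes held it. The windows below span 15 bases before and 15 bases from the RefSeq start and are written 5′ to 3′, with the pyrimidine run in capitals. They are shown because they include the member with the highest level per length (RPS18), genes with large falls in shMETTL3 (RPS13, RPL12, RPL22L1 and RPL36A), members described by role (RPLP0, RPS6 and RPS19), and 4 members in which no such run was found, RPS29 and the paralogs RPS27L, RPL26L1 and RPL7L1.
RPS18 (chr6:33272060-33272089, plus strand): cgcgtcacttccgCTCTCTCTTCCacagga
RPS13 (chr11:17077653-17077682, minus strand): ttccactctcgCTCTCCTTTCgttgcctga
RPL12 (chr9:127451392-127451421, minus strand): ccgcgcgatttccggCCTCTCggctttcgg
RPL22L1 (chr3:170870181-170870210, minus strand): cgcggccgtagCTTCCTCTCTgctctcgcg
RPL36A (chrX:101390996-101391025, plus strand): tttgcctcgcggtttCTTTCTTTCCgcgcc
RPLP0 (chr12:120201097-120201126, minus strand): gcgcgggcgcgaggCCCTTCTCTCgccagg
RPS6 (chr9:19380222-19380251, minus strand): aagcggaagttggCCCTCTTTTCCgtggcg
RPS19 (chr19:41860240-41860269, plus strand): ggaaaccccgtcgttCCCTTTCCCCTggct
RPS29 (chr14:49598696-49598725, minus strand): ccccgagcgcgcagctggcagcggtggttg
RPS27L (chr15:63157463-63157492, minus strand): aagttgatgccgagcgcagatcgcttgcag
RPL26L1 (chr5:172958714-172958743, plus strand): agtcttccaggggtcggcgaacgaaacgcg
RPL7L1 (chr6:42879601-42879630, plus strand): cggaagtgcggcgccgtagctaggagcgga
No match says only that these letters are not in this window, and the annotated start may differ from the one used in K562.

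Levels of different members were compared per length, as TMM-scaled CPM per kilobase of the longest coding transcript. In shCTR the 77 genes of the 2 subunits had a median of 862 CPM per kilobase, with quartiles of 423 and 1486. These levels depend on the annotated length. Per kilobase of the median coding transcript, RPL37 stood at 2090 in place of 173 and RPL13 at 3252 in place of 515, while RPL10A stood at 1583 by both lengths. RPS18, a 40S head protein, had the highest level of any member tested, 5215 ± 87.5 CPM per kilobase (SD, n = 2), and further high levels were those of RPS2 at 4063 ± 211, RPS27 at 3106 ± 39.8 and the stalk base protein RPLP0 at 2713 ± 97.9. These 4 genes lay apart from one another by more than their spread on this scale, and the order of members may change with the transcript length used. The 7 paralogs tested had a median of 16.1 CPM per kilobase and a highest value of 183, for RPL36AL.

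**Figure D1:**
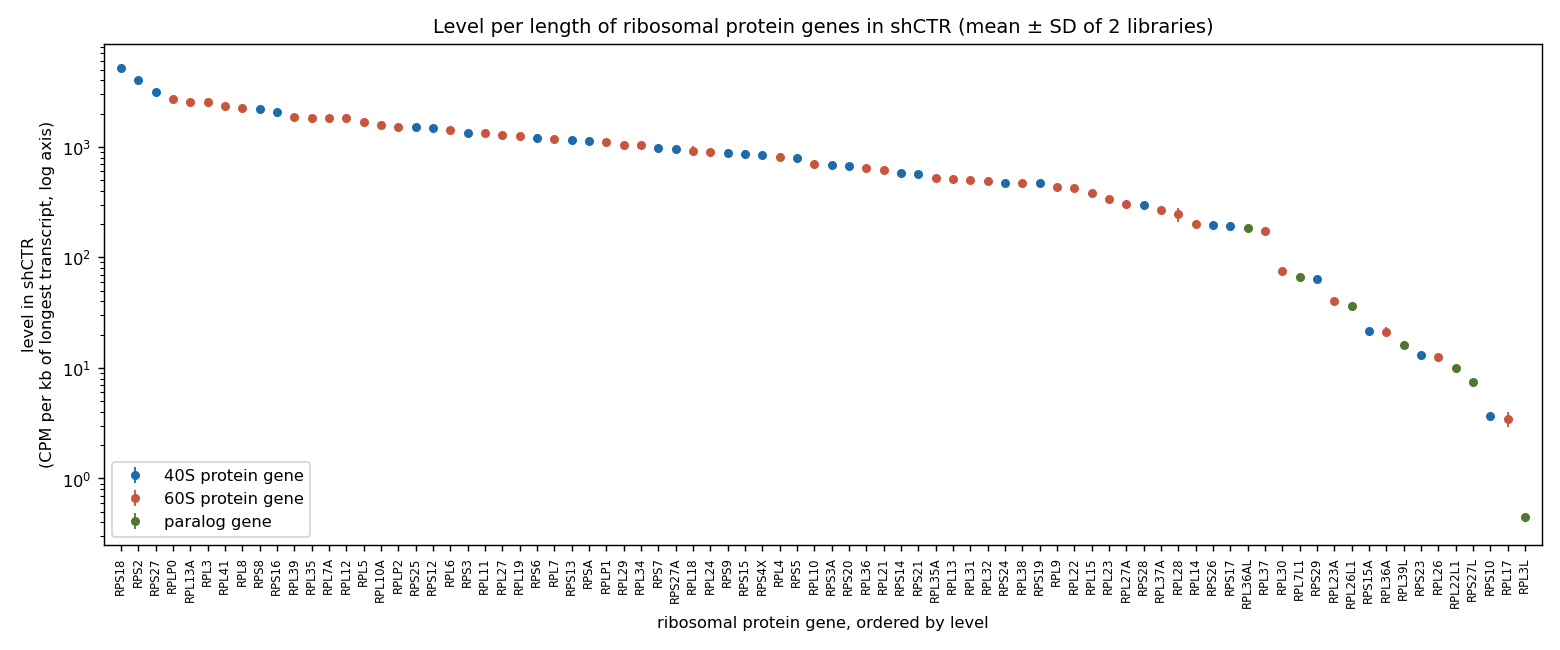
Level of 40S, 60S and paralog genes in shCTR, in CPM per kilobase of the longest coding transcript on a log axis, as the mean and SD of 2 libraries, ordered by level (82 genes shown). The quartiles of the subunit genes are 423 and 1486, and RPS10, RPL17 and most paralogs form a low tail.

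The low tail held 9 of the 77 subunit genes, at under 10% of the median: RPL30, RPS29, RPL23A, RPS15A, RPL36A, RPS23, RPL26, RPS10 and RPL17. For these genes the count may not stand for the transcript. RPL17, a protein at the exit of the peptide tunnel, had 52 and 63 reads in shCTR, 65 and 56 in shMETTL3, and 59 and 61 in shMETTL14. The readthrough gene RPL17-C18orf32, which shares part of the exons of RPL17 on the same strand, had 0 reads in every library. All overlapping genes together cover 35.3% of the exon bases of RPL17. The 49 annotated pseudogenes that bear its name held 1663 and 1590 reads in shCTR. RPS10, a 40S head protein, had 97 and 106 reads in shCTR, 85 and 82 in shMETTL3, and 104 and 96 in shMETTL14, and its readthrough RPS10-NUDT3 also had 0 reads in all 6 libraries. A count of 0 allows up to 3 reads, and this floor covers counting error only. RPL36A had 408 and 345 reads in shCTR against 4186 and 4068 in the 52 annotated pseudogenes that bear its name. Reads of RPL17, RPS10 and RPL36A are therefore uncertain, since reads shared with a copy or an overlapping gene may have been dropped or assigned elsewhere. RPS29 belonged to the tail through its long longest transcript alone: per kilobase of its median coding transcript it stood at 774 CPM. Over all members, reads in 1604 ribosomal protein pseudogenes amounted to 4.90% to 5.17% of the reads in the members, led by the RPS2 copy RPS2P5 with 16081 to 18813 reads per library and the RPS28 copy RPS28P7 with 7453 to 8251.

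Ribosomal protein genes took a smaller share of the reads in shMETTL3 than in shCTR, while the separation of shMETTL14 from shCTR depended on the total used. Members held 9.08% and 9.57% of the reads in the 2 shCTR libraries, 8.44% and 8.57% in shMETTL3, and 8.60% and 9.06% in shMETTL14. Both shMETTL3 libraries lay below both shCTR libraries, as did both shMETTL14 libraries, although the higher shMETTL14 library lay close to the lower shCTR library (9.06% against 9.08%). Mitochondrially encoded genes held 3.36% to 3.37% of the reads in shCTR, 3.52% to 3.59% in shMETTL3 and 3.70% to 3.78% in shMETTL14, higher in all 4 knockdown libraries than in both controls. With these genes left out of the total, members held 9.39% and 9.90% in shCTR, 8.75% and 8.89% in shMETTL3, and 8.94% and 9.41% in shMETTL14, so that shMETTL14 then overlapped shCTR and shMETTL3 did not. With 2 libraries against 2 the smallest exact two-sided permutation p is 0.333, so that no test was made of these shares. On the TMM scale, the summed level of the members was 87.8% of shCTR in shMETTL3 and 93.0% in shMETTL14. The ratio of 60S to 40S reads was 1.56 and 1.57 in shCTR, 1.60 and 1.58 in shMETTL3, and 1.61 and 1.61 in shMETTL14, slightly higher in all 4 knockdown libraries than in both controls. In such bulk libraries fewer cells with a high level and less RNA per cell cannot be told apart, and a change in the total amount of mRNA per cell is not seen.

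**Figure D2:**
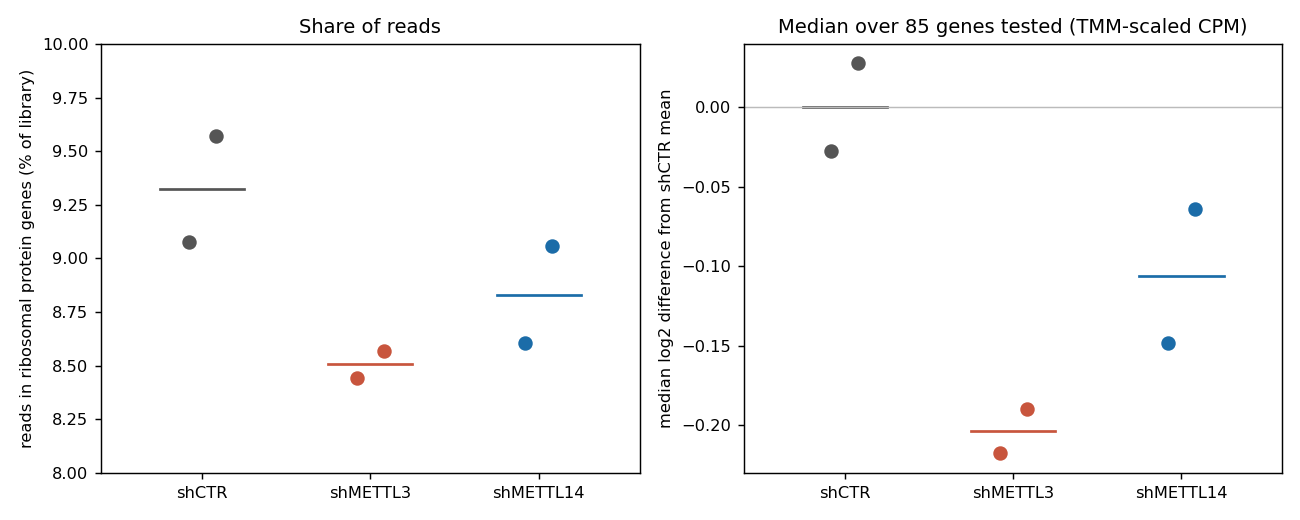
Left, reads in ribosomal protein genes as percent of each library (the axis starts at 8%). Right, median over the 85 genes tested of the log2 TMM-scaled CPM minus the shCTR mean; points are libraries and lines are group means, and both shMETTL3 libraries (medians of -0.22 and -0.19) lie below all others.

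The first comparison asked which members differed after METTL3 knockdown. In shMETTL3, 55 of the 85 members tested were lower than in shCTR and 0 were higher (edgeR quasi-likelihood test, adjusted p under 0.05 over all 17686 genes tested). Among all genes tested, 7.73% were lower and 8.73% higher. The falls were small and broad: the median log2 fold change of the members was -0.20, with quartiles of -0.25 and -0.14, against a median of 0.00 over all genes, and 82 of the 85 values were below 0. In 74 members both shMETTL3 libraries were lower than both shCTR libraries, against 27.3% of all genes tested. At an unadjusted p under 0.05, 68 members were lower and 1 was higher, both by edgeR and by DESeq2. All genes tested were not counted at this unadjusted threshold, so these numbers have no background share beside them. The number called rested on both shMETTL3 libraries: without replicate 1 it was 17 and without replicate 2 it was 12, when the remaining library was assumed to vary like the other groups. Scaling by library size alone left 34 members lower and 1 higher. In these alternative fits all genes tested were not counted either.

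**Figure D3:**
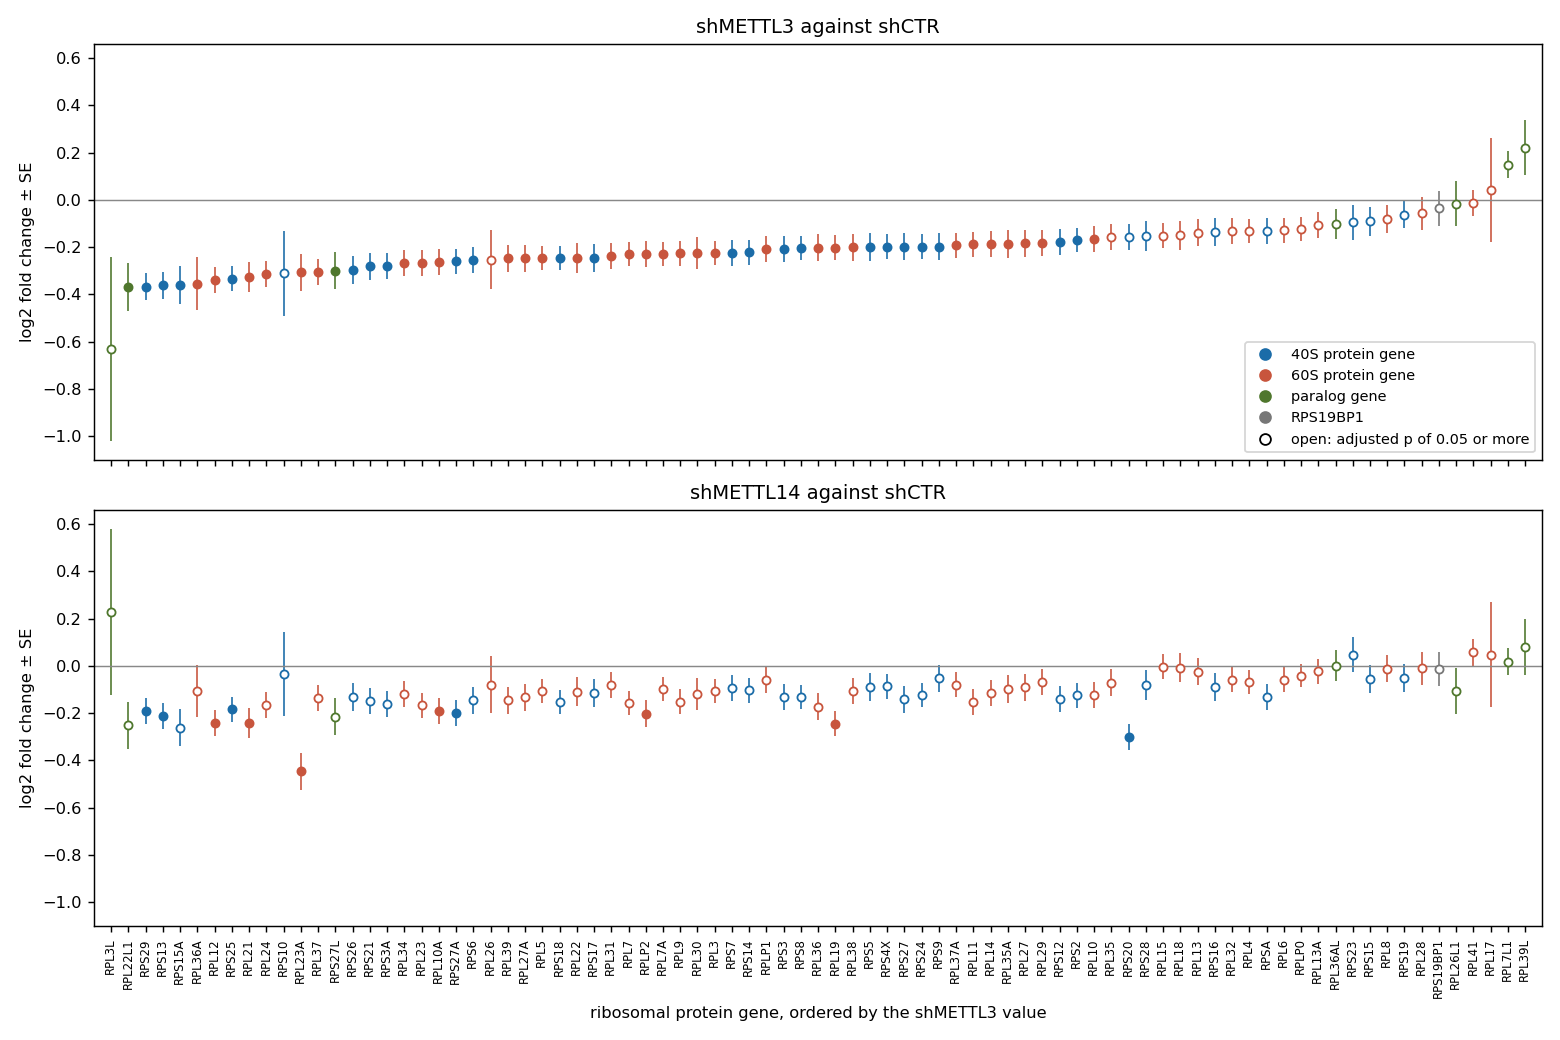
Log2 fold change with its standard error of 83 of the 85 members tested, in shMETTL3 (top) and shMETTL14 (bottom) against shCTR, ordered by the shMETTL3 value, with filled points where the adjusted p was under 0.05. All filled points lie below 0, and both panels share the shCTR libraries. Over all 85 members tested, 55 passed in the top comparison and 11 in the bottom one.

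Among the members past the threshold, the 5 largest falls in shMETTL3 belonged to 3 genes of the 40S subunit, 1 of the 60S subunit and 1 paralog. RPS29 (ENSG00000213741, chr14:49570984-49599164, minus strand, GRCh38), a zinc-binding protein of the 40S head, had 460.1 and 442 CPM in shCTR, 341 and 358 in shMETTL3, and 395 and 395 in shMETTL14. All 4 knockdown libraries were below both controls, and shMETTL3 was the lowest group (log2 fold change -0.37 ± 0.06 SE, adjusted p = 0.000176). RPS13 (ENSG00000110700, chr11:17074389-17077787, minus strand), a 40S platform protein, had 766 and 725 CPM in shCTR, 593 and 567 in shMETTL3, and 629 and 658 in shMETTL14. It was at 77.9% of shCTR in shMETTL3 (-0.36 ± 0.06, adjusted p = 0.000198), again with no overlap between the groups.

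RPS15A (ENSG00000134419, chr16:18781295-18790383, minus strand), also of the 40S subunit, had 46.8 and 48.4 CPM in shCTR, 39.2 and 34.9 in shMETTL3, and 41.2 and 38.2 in shMETTL14 (-0.36 ± 0.08 in shMETTL3, adjusted p = 0.00403). With 925 and 926 reads in shCTR, it was in the low tail of subunit genes, where the count may not stand for the transcript. RPL36A, of the 60S subunit, had 20.6 and 18.0 CPM in shCTR, 16.4 and 13.9 in shMETTL3, and 18.4 and 17.6 in shMETTL14 (-0.36 ± 0.11, adjusted p = 0.0349). RPL36A had few reads beside its pseudogenes, and its call was lost with DESeq2, without the filter on low counts, and in a fit to the compared groups alone. The paralog RPL22L1 gave the largest fall past the threshold, described with the other paralogs.

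The RPL12 gene (ENSG00000197958, chr9:127447674-127451405, minus strand), whose protein lies at the base of the P stalk, was lower in both knockdowns. It had 1135 and 1165 CPM in shCTR, 894 and 925 in shMETTL3, and 940.5 and 1005 in shMETTL14. Both knockdowns lay below the controls without overlap, at 79.1% of shCTR in shMETTL3 (adjusted p = 0.000262) and 84.6% in shMETTL14 (adjusted p = 0.00921).

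The P stalk consists of RPLP0, which anchors it to the 60S subunit, and of RPLP1 and RPLP2, which form its flexible arms. RPLP1 had 1288 and 1353 CPM in shCTR, 1107 and 1177 in shMETTL3, and 1230.3 and 1303 in shMETTL14. RPLP2 had 1148 and 1218 CPM in shCTR, 983 and 1036 in shMETTL3, and 997 and 1059.8 in shMETTL14. Both fell in shMETTL3, by 0.21 and by 0.23 on the log2 scale (adjusted p = 0.0130 and 0.00810), and RPLP2 also passed the test in shMETTL14, with a log2 fold change of -0.20 (adjusted p = 0.0332), a call lost with library size alone and in a fit to the compared groups. RPLP0 had 3553 and 3739 CPM in shCTR, 3317 and 3372 in shMETTL3, and 3454 and 3635 in shMETTL14. Its shMETTL3 libraries were below both controls, but the log2 fold change of -0.12 ± 0.05 did not pass the test (adjusted p = 0.0981).

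RPL5 and RPL11 bind 5S ribosomal RNA and, when free of the ribosome, hold back the p53 inhibitor MDM2. RPL5 had 1801 and 1871 CPM in shCTR, 1568 and 1526 in shMETTL3, and 1671 and 1741 in shMETTL14, and the fall in shMETTL3 was 0.25 on the log2 scale (log2 fold change -0.25 ± 0.05, adjusted p = 0.00251). RPL11 had 1299 and 1386 CPM in shCTR, 1183 and 1175 in shMETTL3, and 1244 and 1173 in shMETTL14, with a log2 fold change of -0.19 ± 0.05 in shMETTL3 (adjusted p = 0.0217). Neither passed the test in shMETTL14, at -0.11 for RPL5 (adjusted p = 0.251) and -0.15 for RPL11 (adjusted p = 0.103).

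RPS6 is the 40S protein that S6 kinase phosphorylates downstream of mTORC1. Its mRNA had 1624 and 1681 CPM in shCTR, 1347 and 1422 in shMETTL3, and 1425 and 1561 in shMETTL14, and stood at 83.8% of shCTR in shMETTL3 (adjusted p = 0.00389) and at 90.4% in shMETTL14 (adjusted p = 0.133). RPSA, a 40S protein also known as the laminin receptor, had 1281 and 1339.9 CPM in shCTR, 1196 and 1196 in shMETTL3, and 1149 and 1245 in shMETTL14. Its values did not overlap with the controls in either knockdown, with log2 fold changes of -0.13 and -0.13 that did not pass the test (adjusted p = 0.108 and 0.173).

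Of 20 subunit genes linked to Diamond-Blackfan anemia, 13 were lower in shMETTL3 and 0 higher, and 1 was lower in shMETTL14. Over all genes tested, 7.73% were lower in shMETTL3 and 3.26% in shMETTL14. The 1 gene in shMETTL14 (5.0%) is near that share. The median log2 fold changes of the 20 genes were -0.21 and -0.10, close to those of all members. RPS19, the gene most often mutated in this anemia, was among those that did not pass: it had 1049 and 1153 CPM in shCTR, 1042 and 1068 in shMETTL3, and 1021 and 1106 in shMETTL14. Its groups overlapped in shMETTL3 and in shMETTL14 (log2 fold change -0.06 ± 0.06, adjusted p = 0.520 in shMETTL3).

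By subunit, 22 of 31 genes of the 40S subunit and 31 of 46 of the 60S subunit were lower in shMETTL3, where 7.73% of all genes tested were. The median log2 fold changes were -0.20 and -0.20. Over both subunits 76 of 77 values were below 0. Besides RPS19, the values of shMETTL3 and shCTR overlapped, among others, in RPL8, RPL17, RPL28, RPL41 and RPS15 of the subunit genes, named here after their values were seen. RPL41, the shortest ribosomal protein, was at -0.01 ± 0.06 (adjusted p = 0.904).

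The second comparison set METTL14 knockdown against the same shCTR libraries. In shMETTL14, 11 of the 85 members were lower and 0 higher, where 3.26% of all genes tested were lower and 3.43% higher. The median log2 fold change of the members was -0.11, with quartiles of -0.15 and -0.06, and 78 of 85 values were below 0. At an unadjusted p under 0.05, 37 members were lower and 0 higher by edgeR, and the same numbers were obtained by DESeq2. Here too, all genes tested were not counted at the unadjusted threshold, nor in the alternative fits given below. The 2 shMETTL14 libraries differed from each other by a median of 0.08 (log2) over the members, the 2 shCTR libraries by 0.06 and the 2 shMETTL3 libraries by 0.02. By these medians replicate 2 was the higher library in every group. The count was 1 without shMETTL14 replicate 1 and 5 without replicate 2, 5 without either shMETTL3 library and 5 in a fit to the compared groups alone, and 22 with the replicate number as a block.

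The genes called in shMETTL14 were led by RPL23A, a 60S protein at the tunnel exit. RPL23A (ENSG00000198242, chr17:28719393-28724359, plus strand) had 64.9 and 61.6 CPM in shCTR, 48.9 and 53.4 in shMETTL3, and 49.8 and 43.1 in shMETTL14, and stood at 73.4% of shCTR in shMETTL14 (log2 fold change -0.45 ± 0.08, adjusted p = 0.00130) and at 80.9% in shMETTL3 (adjusted p = 0.0110). It was among the 9 subunit genes of low level per length, and its 91 pseudogenes held 536 to 601 reads per library against 844 to 1282 in the gene. RPS20, a 40S head protein, had 1189 and 1253 CPM in shCTR, 1099.7 and 1094 in shMETTL3, and 956 and 1025 in shMETTL14. The shMETTL14 libraries were the lowest, at 81.1% of shCTR (-0.30 ± 0.05, adjusted p = 0.00164), while the value in shMETTL3 was -0.16 ± 0.05 (adjusted p = 0.0581).

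RPL19, a 60S protein that reaches into a bridge with the small subunit, had 1333 and 1325 CPM in shCTR, 1139 and 1172 in shMETTL3, and 1084 and 1161 in shMETTL14. It was lower in both knockdowns, by 0.24 on the log2 scale in shMETTL14 and by 0.20 in shMETTL3, that is with log2 fold changes of -0.24 (adjusted p = 0.00781) and -0.20 (adjusted p = 0.0131). RPL21, also of the 60S subunit, had 506 and 507 CPM in shCTR, 431 and 376 in shMETTL3, and 422 and 435 in shMETTL14, with log2 fold changes of -0.24 in shMETTL14 (adjusted p = 0.0243) and -0.33 in shMETTL3 (adjusted p = 0.00137). Its 133 pseudogenes held 759 to 886 reads per library against 7552 to 10008 in the gene.

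The knockdowns were also set against each other in the same fit. In shMETTL3, 2 members were lower than in shMETTL14 and 0 higher, while 5.49% of all genes tested were lower and 6.65% higher. The median log2 difference was -0.09. At an unadjusted p under 0.05, 25 members were lower and 2 higher by edgeR (23 and 2 by DESeq2), again without a background share. The 2 members were RPS29, with a log2 difference of -0.18 ± 0.06 (adjusted p = 0.0478), and RPL37, a zinc-binding 60S protein, with -0.17 ± 0.05 (adjusted p = 0.0494). RPL37 had 1351 and 1312 CPM in shCTR, 1072 and 1085 in shMETTL3, and 1160 and 1266 in shMETTL14. Both lay just inside the threshold, and neither was called when counts were scaled by library size alone or left unfiltered, without either shMETTL3 library, or without shMETTL14 replicate 2. A fit to the compared groups alone called 13 members lower and 1 higher. The share of all genes tested called in that fit was not counted.

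Paralog genes replace or accompany a parent protein in some cells, and their mRNAs were uneven. Of the 7 tested, 2 were lower in shMETTL3 and 0 higher, while 8 of the 9 parent genes were lower, all but RPL26 (-0.25 ± 0.12, adjusted p = 0.177). The parents include RPL10 and RPS4X, whose paralogs were not tested. Of all genes tested, 7.73% were lower and 8.73% higher in shMETTL3, and 3.26% were lower in shMETTL14. The median standard error was 0.096 for the paralogs and 0.057 for the parents, so a change of the same size passed less easily in a paralog. The medians were -0.10 for the paralogs and -0.23 for the parents, and in shMETTL14 no gene of either kind passed the test (0 of 7 and 0 of 9). RPL22L1 (ENSG00000163584, chr3:170864875-170870483, minus strand), the counterpart of the RNA-binding 60S protein RPL22, had 21.7 and 21.9 CPM in shCTR, 17.6 and 16.2 in shMETTL3, and 17.5 and 19.1 in shMETTL14. Its 4 knockdown libraries lay below both controls (-0.37 ± 0.10 in shMETTL3, adjusted p = 0.0157). This call was lost with DESeq2 and without shMETTL3 replicate 2. The parent RPL22 had 837 and 919.6 CPM in shCTR, 736 and 746 in shMETTL3, and 769 and 859.98 in shMETTL14, a log2 fold change of -0.25 ± 0.06 in shMETTL3 (adjusted p = 0.00982).

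RPS27L, a p53-induced relative of RPS27, had 47.5 and 48.4 CPM in shCTR, 37.2 and 40.7 in shMETTL3, and 39.4 and 43.1 in shMETTL14. It fell by 0.30 on the log2 scale in shMETTL3 (log2 fold change -0.30, adjusted p = 0.0122), and RPS27, with 1105 and 1125 CPM in shCTR and 962 and 981 in shMETTL3, fell by 0.20 (log2 fold change -0.20, adjusted p = 0.0218). RPL36AL, a near relative of RPL36A, had 134 and 139 CPM in shCTR, 131 and 123 in shMETTL3, and 132 and 142 in shMETTL14 (-0.10 ± 0.07 in shMETTL3, adjusted p = 0.309).

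The paralogs RPL7L1 and RPL39L had higher values in shMETTL3 than in shCTR, on the other side of 0 from their parents. RPL7L1, whose protein acts in large-subunit assembly, had 306 and 289.6 CPM in shCTR, 329 and 330.2 in shMETTL3, and 307 and 296 in shMETTL14. The groups shMETTL3 and shCTR did not overlap, and the log2 fold change of 0.15 ± 0.06 did not pass the test (adjusted p = 0.0862), although it did with library size alone (0.20), with the GC and length offset (0.17) and without shCTR replicate 1 (0.18). Its parent RPL7 had 1782 and 1833 CPM in shCTR, 1531 and 1553 in shMETTL3, and 1594 and 1648 in shMETTL14 (-0.23 ± 0.05 in shMETTL3, adjusted p = 0.00399). RPL39L, known from testis and from some tumors, had 11.4 and 12.9 CPM in shCTR, 13.7 and 14.6 in shMETTL3, and 12.4 and 13.4 in shMETTL14 (0.22 ± 0.12 in shMETTL3, adjusted p = 0.214), while RPL39 in the exit tunnel had 727 and 761 in shCTR and 621 and 632 in shMETTL3 (-0.25 ± 0.06, adjusted p = 0.00549). The difference between paralog and parent was not tested. RPL26L1 had 26.8 and 27.3 CPM in shCTR and 24.5 and 28.9 in shMETTL3, which overlapped.

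The muscle paralog RPL3L was near the limit of detection, with 18 and 20 reads in shCTR, 11 and 14 in shMETTL3, and 24 and 21 in shMETTL14. Its log2 fold change of -0.63 ± 0.39 in shMETTL3 was the lowest of all members and did not pass the test (adjusted p = 0.293). The testis paralog RPL10L had 2 to 6 reads per library and was not tested.

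**Figure D4:**
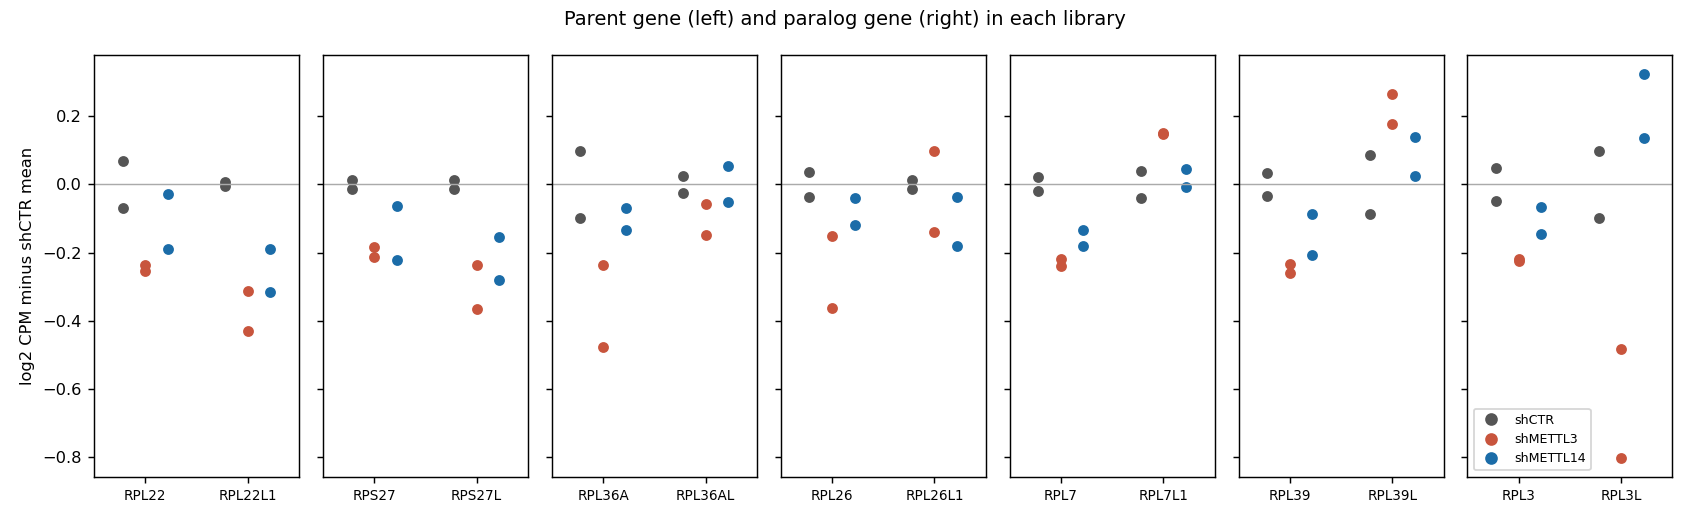
Log2 TMM-scaled CPM minus the shCTR mean of 7 parent genes (left in each panel) and their paralogs (right), with 1 point per library, some of which coincide. RPL22L1 and RPS27L lie below the controls in both knockdowns, while the shMETTL3 points of RPL7L1 and RPL39L lie above 0 and those of their parents below it.

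Several genes outside the symbol rule belong to the same machinery. Ribosomal proteins that carry other symbols include FAU and RACK1, which were picked out after their values were seen. FAU, which encodes the 40S protein eS30 behind a ubiquitin-like tag, had 215.7 and 215.5 CPM in shCTR, 171 and 177 in shMETTL3, and 199 and 204 in shMETTL14 (-0.31 ± 0.06 in shMETTL3, adjusted p = 0.00130). RACK1, the signalling scaffold on the 40S head, had 1638 and 1772 CPM in shCTR, 1504 and 1514 in shMETTL3, and 1666 and 1675 in shMETTL14 (-0.18 ± 0.05 in shMETTL3, adjusted p = 0.0264).

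Other mRNAs known to carry a 5′ TOP start were also counted. Of 25 such genes, which include FAU and RACK1, 24 were tested. In shMETTL3, 14 were lower and 0 higher (median log2 fold change -0.19), and in shMETTL14, 4 were lower and 0 higher (median -0.10). Over all genes tested, 7.73% were lower in shMETTL3 and 3.26% in shMETTL14. The elongation factor subunit gene EEF1B2 had 376 and 392 CPM in shCTR, 303 and 301 in shMETTL3, and 312 and 329 in shMETTL14, and was lower in both knockdowns (-0.34 and -0.26, adjusted p = 0.000387 and 0.00856). BTF3, a subunit of the nascent chain complex, had 1171 and 1198 CPM in shCTR, 926 and 952 in shMETTL3, and 1042 and 1094 in shMETTL14 (-0.34 in shMETTL3, adjusted p = 0.000225). The histone chaperone NAP1L1 gave the largest fall of the list in shMETTL14, with 864 and 839.6 CPM in shCTR and 651 and 675 in shMETTL14 (-0.36, adjusted p = 0.000217).

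Regulators of these mRNAs were counted as well. Of 17 genes of mTORC1 and TOP control tested, 1 was lower and 1 higher in shMETTL3 and 0 in shMETTL14, with medians of -0.01 and 0.01. The shMETTL3 counts are near the background of 7.73% lower and 8.73% higher over all genes tested. The higher gene was RPTOR, the mTORC1 scaffold (63.8 and 68.0 CPM in shCTR, 77.7 and 78.1 in shMETTL3, 0.24 ± 0.07, adjusted p = 0.0197), and the lower one was RPS6KB1, the kinase of RPS6 (82.0 and 72.9 CPM in shCTR, 67.5 and 66.4 in shMETTL3, -0.21 ± 0.07, adjusted p = 0.0460). Of 29 ribosome assembly factors, 7 were lower and 1 higher in shMETTL3 (median -0.11), and 2 were lower and 0 higher in shMETTL14 (median -0.07). The 2 lower in shMETTL14 are 6.90% of the list, where 3.26% of all genes tested were lower.

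Among the assembly factors, NMD3, which escorts the new 60S subunit out of the nucleus, had 106 and 97.0 CPM in shCTR, 79.7 and 79.0 in shMETTL3, and 86.2 and 91.4 in shMETTL14 (-0.36 ± 0.07 in shMETTL3, adjusted p = 0.00124). LTV1, a 40S assembly factor, had 24.1 and 26.5 CPM in shCTR and 20.6 and 19.6 in shMETTL3 (-0.33 ± 0.10, adjusted p = 0.0235). GRWD1, a chaperone of the 60S protein RPL3, was the higher one, with 44.8 and 49.8 CPM in shCTR, 56.2 and 59.95 in shMETTL3, and 56.6 and 54.4 in shMETTL14 (0.30 ± 0.07 in shMETTL3, adjusted p = 0.00960). In shMETTL14 the lower genes were WDR12, of the PeBoW complex (-0.23 ± 0.06, adjusted p = 0.0326), and TSR1, of 40S maturation (-0.25 ± 0.07, adjusted p = 0.0359).

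Host genes of small nucleolar RNAs (snoRNAs), many of which also have TOP starts, were counted in both knockdowns. Of 13 noncoding hosts, 3 were lower in shMETTL3 (median -0.15) and 8 in shMETTL14 (median -0.28), with 0 higher in either, where 7.73% and 3.26% of all genes tested were lower. In the direct comparison of the knockdowns, 4 of the 13 were higher in shMETTL3 than in shMETTL14, where 6.65% of all genes tested were. SNHG1 had 444.9 and 444.9 CPM in shCTR, 419 and 417 in shMETTL3, and 325 and 356 in shMETTL14, a log2 difference of 0.30 ± 0.06 between the knockdowns (adjusted p = 0.00191). SNHG29 was lower in both (-0.28 in shMETTL3 and -0.32 in shMETTL14, adjusted p = 0.00248 and 0.00197), as was ZFAS1 (-0.35 and -0.48, adjusted p = 0.0283 and 0.00819). Of the 28 tested members that host an annotated snoRNA in GENCODE 29, 19 were lower in shMETTL3 and 6 in shMETTL14. The 57 without one had 36 and 5 such genes, and the medians of hosts and others were -0.22 and -0.20 in shMETTL3 and -0.13 and -0.09 in shMETTL14.

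Members with and without the pyrimidine run at the start were compared by counts. Of the 52 tested members with the run within 5 bases of the start, 36 were lower in shMETTL3 (median log2 fold change -0.21), as were 8 of the 15 without it (median -0.16) and 11 of the 18 with no RefSeq start (median -0.21). In shMETTL14, 7 of the 52, 2 of the 15 and 2 of the 18 were lower. The shares over all genes tested were 7.73% lower in shMETTL3 and 3.26% in shMETTL14. RPS29, whose printed window holds no run, was lower in both comparisons (adjusted p = 0.0473 in shMETTL14, a call lost with library size alone, without the filter and in a fit to the compared groups), and RPL41, which has the run, was near 0 in both (-0.01 and 0.06). RPL41 was picked out after its values were seen, and the annotated start of RPS29 may differ from the one used in K562.

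GC content moved with the values and also differed between control libraries. Over the 77 subunit genes the log2 fold change in shMETTL3 rose with the GC content of the longest transcript (Pearson r 0.309, Spearman rho 0.344), and so did the difference between the 2 shCTR libraries (r 0.333, rho 0.345); these are descriptions over genes that share the same libraries. Split by GC content into low, middle and high groups, 19 of 26, 21 of 25 and 13 of 26 genes were lower in shMETTL3, with medians of -0.24, -0.21 and -0.16. With an offset for GC content and length, fitted without the members, the corresponding numbers were 14, 17 and 21 and the medians -0.14, -0.19 and -0.20. Over all 85 members, 54 were lower under this offset, 45 of them also called without it. Without the offset 7.73% of all genes tested were lower, and with it all genes tested were not counted.

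**Figure D5:**
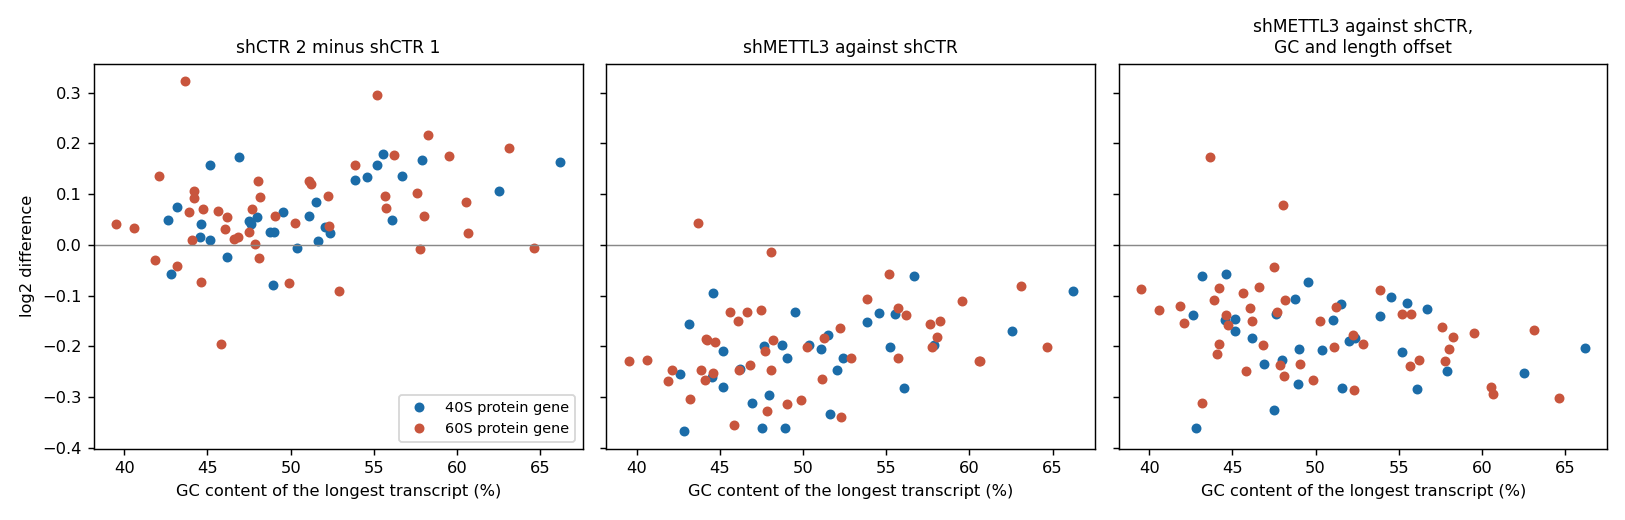
Log2 difference against GC content for the 77 subunit genes: shCTR replicate 2 minus replicate 1 (left), shMETTL3 against shCTR (middle) and the same with the GC and length offset (right), 1 point per gene. The left and middle panels rise with GC content (rho of 0.345 and 0.344), and in the right panel the values of the high-GC group (median -0.20) lie lower than those of the low-GC group (median -0.14).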

How the data were processed

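The authors deposited a table of raw read counts per Ensembl gene for 6 mRNA libraries made with oligo(dT) beads and random primers. The submitters' processing notes name HTSeq 0.6.1 and hg38, while the aligner, annotation and strand setting are not given in the sources used here. Column names matched the sample titles by group and replicate number. Symbols, lengths and GC content came from GENCODE 29, start sequences from RefSeq. The coding feature RPS27AP5 was left out as a RefSeq pseudogene. In each library 0.635% to 0.703% of the reads lay in 986 features with no Ensembl ID, which stayed in the totals. Members and lists were chosen with earlier results of these data known.

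Counts were filtered (filterByExpr, minimum count 10) and scaled by TMM in R 4.3.3, and all 6 libraries were fitted with 3 groups in edgeR 4.0.16 (quasi-likelihood test, Benjamini-Hochberg over 17686 genes, threshold 0.05). Scripts were tested on simulated data. Members differed more between the libraries of a group than counting noise allows, where noise alone gives a mean chi-square of 1: the shCTR pair had 56.6, the shMETTL3 pair 7.08 and the shMETTL14 pair 37.8. Correlations of same-numbered deviations over all 17686 genes tested were 0.0614, 0.00511 and -0.0200, so the numbers were not taken as pairs. These correlations were not computed over the members alone.

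Alternatives were DESeq2 1.42.0, its size factors, library size alone, TMM without the members, no filter, the compared groups alone, the replicate block, an offset for GC content and length (mgcv 1.9.3), and each library left out. Named were the 5 largest calls per comparison, the 5 highest and lowest levels per length, the role groups, and the 2 largest calls per other list. Some genes are not reported here.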

Additional observations from a re-analysis of the deposited data

Results flagged for a closer look

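In 2 of the 85 members tested (2.35%) the knockdowns differed in the direct contrast, both lower in shMETTL3 than in shMETTL14. Over all genes tested, 5.49% were lower and 6.65% higher in this contrast. Both calls lay just inside the threshold and were lost with library size alone and without the filter. RPS29 had a log2 difference of -0.18 (adjusted p = 0.0478) and RPL37 one of -0.17 (adjusted p = 0.0494), with both shMETTL3 libraries below both shMETTL14 libraries in each gene.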

How the results depend on the processing

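No alternative reversed a median or a named member past the threshold. All genes tested were not counted under the alternatives. The numbers of members called below therefore have no background share beside them, and an alternative may change the calls of all genes. Scaling by library size alone gave 34 members lower and 1 higher in shMETTL3 (median log2 fold change -0.15), 6 lower in shMETTL14, and 0 lower and 1 higher between the knockdowns. The counts lower without the filter were 52, 9 and 0. With the compared groups alone 5 members were lower in shMETTL14, and 13 were lower and 1 higher between the knockdowns. The GC and length offset gave 1 higher in shMETTL3, 19 lower in shMETTL14, and 7 lower and 2 higher between the knockdowns. The labels do not say whether same-numbered libraries share more than a number. With this number as a replicate block, 68 members were lower in shMETTL3, 22 in shMETTL14, and 12 lower and 1 higher between the knockdowns.

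Leaving out single libraries gave 12 to 68 members lower and 0 to 1 higher in shMETTL3, 1 to 13 lower in shMETTL14, and 0 to 14 lower and 0 to 1 higher between the knockdowns; the lone library was assumed to vary like the other groups. The last count was 14 without either shCTR library, and 0 without either shMETTL3 library or without shMETTL14 replicate 2. Over all alternatives the medians ranged from -0.24 to -0.15, from -0.15 to -0.06 and from -0.13 to -0.05. Without mitochondrially encoded genes in the total, members held 9.65% of the reads in shCTR, 8.82% in shMETTL3 and 9.17% in shMETTL14, and the shMETTL14 libraries then overlapped shCTR. Per kilobase of the median coding transcript in place of the longest, RPL22L1 stood at 39.99 CPM in place of 9.95, RPS27L at 59.3 in place of 7.45, RPS10 at 7.94 in place of 3.71, RPL3L at 0.709 in place of 0.448 and RPLP0 at 4307 in place of 2713. The values per kilobase changed through the transcript length alone. The causes of the other shifts were not tested. Depth limits RPL3L, RPL17 and RPS10 most, and 2 libraries a group limit all calls.

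The log2 fold changes of 7 named members that did not pass the test changed sign under at least 1 alternative. RPL26L1 in shMETTL3 was at 0.0402 with library size alone and 0.0754 with the GC and length offset, and RPL36AL was at 0.0444 with that offset. RPL36AL in shMETTL14 lay at -0.000387 with DESeq2, at -0.000386 with its size factors and at -0.00279 without the filter. With single libraries left out, RPL17 ranged from -0.11 to 0.21 in shMETTL3 and from -0.11 to 0.21 in shMETTL14, RPS19 from -0.13 to 0.00481 and from -0.12 to 0.0181, and RPL26L1 in shMETTL3 from -0.14 to 0.10. In shMETTL14, RPL36AL ranged from -0.0534 to 0.0534, RPL39L from -0.00445 to 0.17, RPL7L1 from -0.0218 to 0.0563 and RPS10 from -0.12 to 0.0524.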
